A study of Homo sapiens with 6 samples.

Results

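The genes described here encode glycoproteins and proteoglycans of the extracellular matrix, together with a few cell-surface proteoglycans that bind it. A list of 50 such genes, 29 for glycoproteins and 21 for proteoglycans and their partners, was matched by gene symbol to a table of 24489 rows. Of these, 49 had a row and 36 were measured at a level high enough to test, which is 19 glycoprotein and 17 proteoglycan genes. The study ran RNA-seq on LN229, an established cell line of human glioblastoma, in 6 libraries: 3 from cells transduced to overexpress LACTB and 3 from cells transduced with an empty vector. LACTB is a mitochondrial serine beta-lactamase-like protein. The study asked what LACTB does in glioma cells. The labels give no time after transduction, and do not say whether the cells were clones or pools.

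The matrix holds cells in place and binds growth factors around them. Its glycoproteins include adhesive proteins that integrins grip, basement membrane linkers, fibrillins that build microfibrils, and matricellular proteins that modulate adhesion without bearing load. Proteoglycans carry sulfated sugar chains on a core protein. In the brain the matrix is rich in hyaluronan and in the lecticans that bind it, and glioblastoma is known for abundant tenascin-C, CD44 and chondroitin sulfate proteoglycans.

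Values are normalized read counts as deposited, and column totals ranged from 34907394 to 35683869 in LACTB libraries and from 38049489 to 41384595 in vector libraries. LACTB itself had 4268, 4078 and 4203 normalized counts in LACTB libraries against 458, 515 and 393 in vector libraries. It was 9.19-fold higher (log2 difference 3.21, SE 0.13, limma adjusted p = 2.95e-14), as the labels state. All 7 markers listed for a glioma line were expressed, with a summed level of 92824 to 93414 in LACTB libraries and 91467 to 98327 in vector libraries. The similar sums hide moves in both directions. VIM, GFAP, EGFR and SOX2 (mean 2674 in LACTB, 1131 in vector libraries) were called higher. OLIG2 and S100B (mean 14499 in LACTB, 33778 in vector libraries) were called lower, and NES did not pass. The markers of each other cell type summed to less, and no marker was at 0 in all libraries. The 8 fibroblast and mural markers with a row, which include the list members LUM and DCN, summed to 2159 to 2191 in LACTB libraries against 1314.5 to 1573 in vector libraries. They did not move as a set. LUM, with a mean of 1059 in LACTB and 304 in vector libraries, and COL1A1 were called higher and DCN lower. ACTA2, PDGFRA and PDGFRB did not pass, and COL3A1 and RGS5, both with lower means in LACTB libraries, were too low to test. The melanocytic markers summed to 601 to 769 in LACTB libraries against 3116 to 3972 in vector libraries, and the immune markers, of which only CD68 was high enough to test, to 1600 to 1697 against 1045 to 1177. The endothelial markers summed to 180 to 208 in LACTB libraries against 246 to 315 in vector libraries. They did not move as a set. Only KDR, too low to test, had groups that did not overlap, with a mean of 4.86 in LACTB and 69.9 in vector libraries. PECAM1 and VWF did not pass, and CDH5, CLDN5 and TEK were too low to test. CD68 was called higher, with a mean of 1614 in LACTB and 1076 in vector libraries. CD14, too low to test, went the other way (mean 19.1 in LACTB, 32.9 in vector libraries), and C1QA matched no row. PTPRC, which marks leukocytes, averaged 2.08 in LACTB and 5.65 in vector libraries. AIF1 was listed at 0 in the 3 vector libraries and was near 0 in LACTB libraries too, at 0, 1.80 and 0.00861. Among the melanocytic markers DCT, MITF and PMEL were called lower, and TYR was listed at 0 in the 3 LACTB libraries. TYRP1 went the other way, with 18.0, 32.4 and 18.1 in LACTB libraries against 12.5, 0.102 and 0.0601 in vector libraries, and MLANA had overlapping groups. The part of the cells that these markers stand for in the differences below was not tested. Since these are bulk libraries, a change in the share of cells that make a transcript and a change in RNA per cell cannot be told apart.

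Matrix genes moved in both directions in equal number. Of the 36 tested, 13 were higher and 13 lower in LACTB cells and 10 did not pass the test (limma on log2 of the value plus 1, Benjamini-Hochberg adjusted p under 0.05 over all 12939 genes tested). Over all genes tested, 51.9% passed, 27.4% higher and 24.6% lower, against 72.2% of the matrix genes, 36.1% in each direction. The median log2 difference was 0.03 for matrix genes and 0.05 for all genes. The split depends on the scaling: 15 were higher and 9 lower with equal column totals (38.5% and 14.7% of all genes), and 11 were higher and 15 lower with libraries centred on their medians (20.7% and 32.1%). On the log2 scale, differences of at least 2-fold were found for 11 genes. ACAN, VCAN, THBS1, TGFBI, LUM and FBN1 were higher, and MGP, SDC2, FBN2, BGN and THBS4 were lower. These are 16.7% and 13.9% of the matrix genes tested, beside 6.34% and 4.48% of all genes (10.8% in either direction). By group means THBS4 was only 1.88-fold lower. The 3 LACTB and 3 vector values did not overlap for 23 matrix genes, 13 above and 10 below the vector values, which is 63.9% against 59.7% of all genes (31.1% above and 28.7% below).

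**Figure D1:**
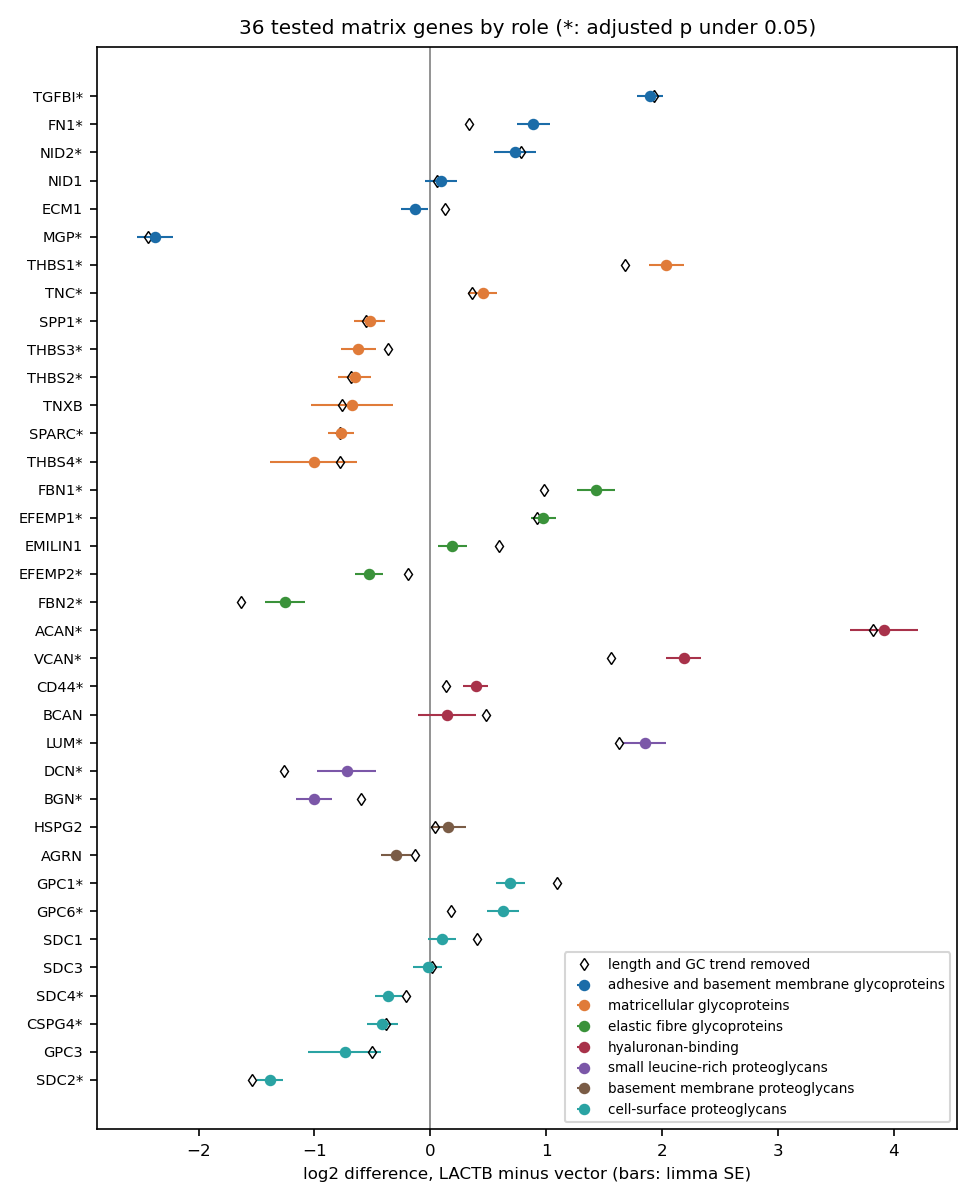
Log2 difference, LACTB minus vector, of each of the 36 tested matrix genes, grouped by role (filled points, with the limma SE as bars) and again after a transcript length and GC trend across all genes was removed (open diamonds). Asterisks mark adjusted p under 0.05; every role group except the basement membrane proteoglycans holds called genes, and ACAN at 3.92 and MGP at -2.38 are the extremes.

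The 13 genes under the testing limit of 37.7 normalized counts on average were VTN, SPARCL1, TNR, POSTN, SPON1, FBLN2, FBLN5, ELN, MFAP2, NCAN, HAPLN1, SPOCK2 and GPC4. No library gave any of them more than 28.3 normalized counts. FBLN5 had 5.41, 1.67 and 0.0332 normalized counts in LACTB libraries and was listed at 0 in the 3 vector libraries. GPC4 had 1.65, 3.47 and 4.21 in LACTB libraries and was likewise listed at 0 in the 3 vector libraries. Each of the 3 vector libraries had the same number of genes above 0, 22530. The LACTB libraries had 20803, 20494 and 23052. Values of 0 shared by the vector libraries may therefore not be separate observations, and the reason was not tested. COMP matched no row, and its expression was not analysed here. A further 3 genes, TNXB, THBS4 and ACAN, were tested although the mean of 1 group lay under that limit.

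Among the adhesive and basement membrane glycoproteins, with which MGP was grouped here, 3 of 6 tested genes were higher, 1 was lower and 2 did not pass. The lower gene was MGP. Of all genes, 27.4% were higher and 24.6% lower. TGFBI encodes a secreted adhesive protein that binds integrins and collagens and is named for its induction by TGF-beta. It had 26217, 22361 and 21647 normalized counts in LACTB libraries, against 6167, 6324 and 6337 in vector libraries. Every LACTB library lay above every vector library. TGFBI averaged 23408 ± 2459 in LACTB cells and 6276 ± 94.9 in vector cells (SD, n = 3 each), 3.73-fold higher (log2 difference 1.89, SE 0.11, limma adjusted p = 1.71e-11). FN1, which encodes fibronectin, the integrin-binding protein that other matrix proteins assemble on, had 69649, 66951 and 65502 in LACTB libraries against 27052, 42041 and 42379 in vector libraries. The groups did not overlap, and vector library 1 was lowest. FN1 was 1.81-fold higher (log2 difference 0.89, SE 0.14, limma adjusted p = 2.97e-05).

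The nidogens, which link laminin to collagen IV networks, differed in their test results. NID2 had 943, 1135 and 1117 normalized counts in LACTB libraries against 434, 839 and 721 in vector libraries, without overlap. It was 1.60-fold higher (log2 difference 0.73, SE 0.18, limma adjusted p = 0.00206), and 0.45 higher on the log2 scale without vector library 1 (limma adjusted p = 0.00583; 5.31e-06 to 0.0312 over all alternatives). NID1 had 9635, 10564 and 10494 in LACTB libraries against 7239, 11246 and 10909 in vector libraries. Its groups overlapped and it did not pass (log2 difference 0.09, limma adjusted p = 0.61). ECM1, a secreted glycoprotein that binds perlecan, had 12159, 13263 and 12577 in LACTB libraries against 12258, 14202 and 15416 in vector libraries. It did not pass either (log2 difference -0.13, limma adjusted p = 0.339), but was lower without vector library 1 (log2 difference -0.23, limma adjusted p = 0.0401; 0.0401 to 0.689 over all alternatives).

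MGP fell most among the matrix genes that passed the test. It encodes matrix Gla protein, a vitamin K-dependent inhibitor of calcification. MGP had 569.7, 539 and 470.5 normalized counts in LACTB libraries against 3749, 2343 and 2319 in vector libraries. The highest LACTB value lay well below the lowest vector value. It averaged 526 ± 50.8 in LACTB cells and 2804 ± 819 in vector cells (SD, n = 3 each), 5.33-fold lower (log2 difference -2.38, SE 0.16, limma adjusted p = 1.09e-10).

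**Figure D2:**
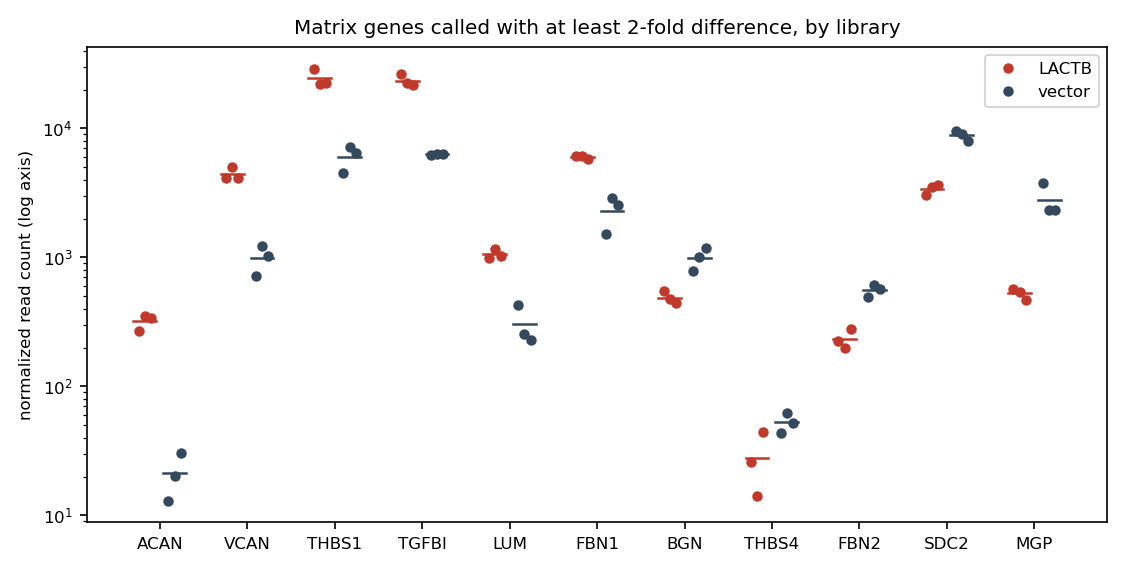
Normalized read count (log axis) of the 11 matrix genes called with at least 2-fold difference on the log2 scale. There is one point per library, with LACTB left and vector right of each gene, and bars for group means. The groups are apart for every gene shown except THBS4, where the highest LACTB library, at 44.2, lies above the lowest vector library, at 43.8.

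Of 8 tested matricellular genes, 2 were higher, 5 were lower and 1 did not pass, beside 27.4% higher and 24.6% lower of all genes. The log2 differences of the group had a median of -0.64. The thrombospondins, secreted multidomain proteins, were split. THBS1 encodes an inhibitor of angiogenesis that can also activate latent TGF-beta. It had 29068, 21959 and 22496 normalized counts in LACTB libraries against 4486, 7129 and 6478 in vector libraries. Every LACTB library lay above every vector library, and THBS1 was 4.06-fold higher (log2 difference 2.04, SE 0.15, limma adjusted p = 5.11e-10). THBS2, a close relative that also inhibits angiogenesis, had 4792, 5642 and 5534 in LACTB libraries against 6311, 10511 and 8757 in vector libraries. It was 1.60-fold lower without overlap (log2 difference -0.65, SE 0.14, limma adjusted p = 0.000685). Per kb of longest transcript, the ratio of THBS1 to THBS2 was 4.53, 2.91 and 3.04 in LACTB libraries against 0.531, 0.507 and 0.553 in vector libraries. Thus the gene of the pair with the higher length-scaled level was THBS1 in each LACTB library and THBS2 in each vector library.

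THBS3 and THBS4 belong to the thrombospondin subgroup that forms pentamers. THBS3 had 376, 413 and 405 normalized counts in LACTB libraries against 552, 618 and 671 in vector libraries. It was lower without overlap (log2 difference -0.62, SE 0.15, limma adjusted p = 0.00174). THBS4 was near the testing limit, with 26.0, 14.1 and 44.2 in LACTB libraries against 43.8, 62.0 and 52.1 in vector libraries. Its log2 difference of -1.01 (SE 0.38, limma adjusted p = 0.0299) came with overlapping groups. The call was lost without LACTB library 2 (-0.61, limma adjusted p = 0.202), without vector library 2 (-0.89, adjusted p = 0.122) and without vector library 3 (-1.01, adjusted p = 0.101). All its alternatives gave between 0.00381 and 0.202.

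SPARC, a collagen-binding protein that counters cell spreading, had the highest level per kb of all tested matrix genes in both groups. It had 32964, 36822 and 36282 normalized counts in LACTB libraries against 61498, 60492 and 58370.3 in vector libraries. Each group was narrow and they did not overlap. SPARC was 1.70-fold lower (log2 difference -0.77, SE 0.11, limma adjusted p = 8.94e-06); quantile normalization left a difference of -0.33 (limma adjusted p = 0.00743, the highest over all alternatives). SPP1, which encodes osteopontin, a ligand of integrins and CD44, had 3722, 4226 and 4010.4 in LACTB libraries against 7368, 5235 and 4867 in vector libraries. Every LACTB library lay below the vector libraries, of which vector library 1 was the highest. Its log2 difference was -0.52 (SE 0.13, limma adjusted p = 0.00238), and -0.34 without vector library 1 (limma adjusted p = 0.0047; 2.49e-05 to 0.0472 over all alternatives).

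TNC encodes tenascin-C, the hexameric glycoprotein of glioma and developing brain matrix. It had 48923, 50176 and 49398 normalized counts in LACTB libraries against 29974, 41612 and 37993 in vector libraries. The groups did not overlap and the LACTB libraries were much closer together. TNC was higher (log2 difference 0.45, SE 0.13, limma adjusted p = 0.00461), but not when libraries were centred on their medians (0.32, limma adjusted p = 0.0579, the highest over all alternatives). TNXB, which encodes tenascin-X, had 23.5 to 46.5 in LACTB libraries and 41.8 to 86.7 in vector libraries and did not pass (log2 difference -0.67, limma adjusted p = 0.117). Its reads are uncertain because a near-identical partial copy, TNXA, lies beside it.

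The fibrillin genes of the elastic fibre group differed in opposite directions. Fibrillins are the large glycoproteins of microfibrils, the scaffold on which elastin is laid down. FBN1 had 6107, 6057 and 5787 normalized counts in LACTB libraries against 1505, 2861 and 2544 in vector libraries. The groups were far apart, with FBN1 2.60-fold higher (log2 difference 1.43, SE 0.17, limma adjusted p = 1.06e-06). FBN2, known mainly for its use in embryonic microfibrils, had 225, 199.9 and 277 in LACTB libraries against 494, 611 and 569 in vector libraries. It was 2.38-fold lower without overlap (log2 difference -1.26, SE 0.17, limma adjusted p = 4.19e-06). Per kb of longest transcript, FBN1 exceeded FBN2 by 25.7, 28.7 and 19.8 times in LACTB libraries and by 2.89, 4.43 and 4.24 times in vector libraries.

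The fibulin-related genes were split as well. EFEMP1, which encodes fibulin-3, had 8222, 7701 and 8191 normalized counts in LACTB libraries against 4304, 4212 and 3765 in vector libraries. It was 1.96-fold higher without overlap (log2 difference 0.98, SE 0.11, limma adjusted p = 2.53e-07). EFEMP2 encodes fibulin-4, which recruits lysyl oxidase to elastic fibres. It had 1632, 1620.0 and 1609 in LACTB libraries against 2108, 2216 and 2719 in vector libraries, again without overlap. EFEMP2 was lower (log2 difference -0.53, SE 0.12, limma adjusted p = 0.001), but not once the length and GC trend was removed (-0.19, limma adjusted p = 0.0778, the highest over all alternatives). EMILIN1, a glycoprotein at the elastin and microfibril interface, had 17244, 16799.8 and 16851 in LACTB libraries against 12204, 15561 and 17362 in vector libraries. The groups overlapped and EMILIN1 did not pass (log2 difference 0.19, limma adjusted p = 0.212). It did pass with the length and GC trend removed (0.59, limma adjusted p = 1.46e-05), with equal column totals (0.38, adjusted p = 0.0161) and after quantile normalization (0.41, adjusted p = 0.00555), in a range of 3.3e-06 to 0.76 over all alternatives.

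In the hyaluronan-binding group 3 of 4 tested genes were higher and none was lower, beside 27.4% higher and 24.6% lower of all genes. The median log2 difference of the group was 1.29. Lecticans are the large chondroitin sulfate proteoglycans that tie hyaluronan to tenascins. VCAN, which encodes versican, had 4143, 5022 and 4104 normalized counts in LACTB libraries against 723, 1222 and 1023 in vector libraries. All LACTB values exceeded all vector values, and VCAN was 4.47-fold higher (log2 difference 2.19, SE 0.15, limma adjusted p = 2.01e-10). ACAN encodes aggrecan, the lectican of cartilage and of perineuronal nets. It had 267, 351 and 340.0 in LACTB libraries against 12.97, 20.1 and 30.6 in vector libraries. Every vector value was under the testing limit and every LACTB value was above it. ACAN was 15.1-fold higher (log2 difference 3.92, SE 0.29), and 2.60 higher on the log2 scale with 1 CPM as pseudocount. The 3.92 was the largest difference among the matrix genes tested, but ACAN was tested only through its LACTB values. Per kb of transcript, VCAN stayed the higher of the pair, 11, 10.2 and 8.56 times ACAN in LACTB libraries and 39.5, 43.2 and 23.7 times in vector libraries.

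BCAN encodes brevican, a lectican of brain tissue. It had 107, 102 and 150.2 normalized counts in LACTB libraries against 80.2, 117 and 129.5 in vector libraries, which overlap (log2 difference 0.14, limma adjusted p = 0.651). CD44 is the main cell-surface hyaluronan receptor. It had 19655, 19472 and 19884 in LACTB libraries against 14529, 15362 and 15143 in vector libraries. Both groups were tight and did not overlap, and CD44 was 1.31-fold higher (log2 difference 0.39, SE 0.11, limma adjusted p = 0.0047). The call for CD44 was lost with median centring (0.26, limma adjusted p = 0.0912) and with the length and GC trend removed (0.13, adjusted p = 0.113), in a range of 2.02e-05 to 0.128 over all alternatives.

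The small leucine-rich proteoglycans bind collagen fibrils and shape their thickness. LUM, which encodes the keratan sulfate proteoglycan lumican, had 983, 1167 and 1028 normalized counts in LACTB libraries against 429, 253 and 230.0 in vector libraries. It was 3.49-fold higher without overlap (log2 difference 1.85, SE 0.19, limma adjusted p = 7.51e-08). BGN, which encodes biglycan, had 548, 476 and 441 in LACTB libraries against 785, 1015 and 1173 in vector libraries. It was 2.03-fold lower without overlap (log2 difference -1.01, SE 0.16, limma adjusted p = 1.93e-05). DCN encodes decorin, a binder of collagen and TGF-beta. It had 98.6, 117 and 138 in LACTB libraries against 257, 122 and 229.5 in vector libraries. These groups overlap, and DCN was lower (log2 difference -0.72, SE 0.25, limma adjusted p = 0.021). Its call was lost without LACTB library 1 (-0.60, limma adjusted p = 0.0772), vector library 1 (-0.52, adjusted p = 0.11) or vector library 3 (-0.60, adjusted p = 0.135), and with equal column totals (-0.53, adjusted p = 0.0931), with all alternatives between 0.0002 and 0.135. Per kb, LUM was 17.8 to 23.8 times DCN in LACTB libraries and 2.38 to 4.93 times DCN in vector libraries. LUM and DCN also stand on the fibroblast and mural marker list whose sums are given above.

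Neither basement membrane proteoglycan passed. HSPG2, which encodes perlecan, had 13098, 13715 and 13031 normalized counts in LACTB libraries against 8414, 14554 and 13820.4 in vector libraries. Vector library 1 stood well below the other 5 (log2 difference 0.16, limma adjusted p = 0.401). AGRN encodes agrin, the heparan sulfate proteoglycan that organises the neuromuscular junction. It had 7213, 6529.8 and 6979.6 in LACTB libraries against 6763, 9203 and 9750.1 in vector libraries (log2 difference -0.29, limma adjusted p = 0.0562). AGRN was lower without vector library 1 (-0.46, limma adjusted p = 0.000412), with median centring (-0.43, adjusted p = 0.0107), without the filter on low values (adjusted p = 0.0484) and in a fit with replicate number as block (adjusted p = 0.0344); over all alternatives its adjusted p ran from 0.000412 to 0.525.

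Of 8 tested cell-surface proteoglycans, 2 were higher, 3 were lower and 3 did not pass (27.4% higher and 24.6% lower over all genes). Syndecans are transmembrane heparan sulfate proteoglycans that act as co-receptors for growth factors and matrix. SDC2 had 3041, 3535 and 3634 normalized counts in LACTB libraries against 9486, 9109.9 and 8049 in vector libraries. The groups were far apart, and SDC2 was 2.61-fold lower (log2 difference -1.39, SE 0.11, limma adjusted p = 3.46e-09). SDC3, the syndecan common in neural tissue, had 19768, 21895 and 21058 in LACTB libraries against 17488, 22574 and 24202 in vector libraries, and did not pass (log2 difference -0.02, limma adjusted p = 0.893). Per kb, SDC2 was 0.262 to 0.293 times SDC3 in LACTB libraries and 0.566 to 0.922 times SDC3 in vector libraries. SDC4, the syndecan of focal adhesions, had 7404, 6029 and 6079 in LACTB libraries against 9055, 7942 and 8015 in vector libraries. It was lower without overlap (log2 difference -0.36, SE 0.12, limma adjusted p = 0.012), a call lost without LACTB library 2 (-0.31, adjusted p = 0.0914) or LACTB library 3 (-0.32, adjusted p = 0.0844), under equal column totals (-0.17, adjusted p = 0.184) or quantile normalization (-0.18, adjusted p = 0.147). Over all alternatives, SDC4 ranged from an adjusted p of 0.00227 to 0.184. SDC1, best known from epithelia and plasma cells, had 3201, 2608 and 2487 in LACTB libraries against 2499, 2372 and 2824 in vector libraries (log2 difference 0.10, limma adjusted p = 0.494). It was higher with the length and GC trend removed (0.41, limma adjusted p = 0.00209) and with equal column totals (0.30, adjusted p = 0.0431), in a range of 0.000401 to 0.977 over all alternatives.

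Glypicans are heparan sulfate proteoglycans held to the membrane by a lipid anchor. GPC1, a co-receptor for fibroblast growth factors, had 14930.5, 12644 and 13147 normalized counts in LACTB libraries against 7387, 8007 and 9986 in vector libraries. It was 1.60-fold higher without overlap (log2 difference 0.69, SE 0.12, limma adjusted p = 8.61e-05). GPC6 had 1023, 1298 and 1260.5 in LACTB libraries against 772, 871 and 674 in vector libraries. It was 1.55-fold higher without overlap (log2 difference 0.63, SE 0.14, limma adjusted p = 0.000794), a call lost with the length and GC trend removed (0.18, limma adjusted p = 0.145, the highest over all alternatives). GPC3, the glypican mutated in an overgrowth syndrome, had 34.2, 51.8 and 66.5 in LACTB libraries against 61.0, 75.8 and 122 in vector libraries, which overlap. It did not pass (log2 difference -0.74, limma adjusted p = 0.0543), but did without LACTB library 3 (-0.96, adjusted p = 0.0203) or vector library 1 (-0.96, adjusted p = 0.0237), with median centring (-0.87, adjusted p = 0.0203), with quantile normalization (-0.87, adjusted p = 0.0353), with 1 CPM as pseudocount (adjusted p = 0.0451) and in a fit with replicate number as block (adjusted p = 0.0286). Over all alternatives, GPC3 ranged from an adjusted p of 0.0203 to 0.289.

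CSPG4 encodes NG2, a transmembrane chondroitin sulfate proteoglycan of oligodendrocyte precursors, pericytes and many gliomas. It had 17489, 19125 and 18054 normalized counts in LACTB libraries against 18604, 26897 and 28513 in vector libraries. The groups overlap through vector library 1. CSPG4 was lower (log2 difference -0.41, SE 0.14, limma adjusted p = 0.0148), but not with equal column totals (-0.22, limma adjusted p = 0.197) or quantile normalization (-0.16, adjusted p = 0.335). The call was also lost without LACTB library 1 (-0.38, limma adjusted p = 0.051), vector library 2 (-0.34, adjusted p = 0.0715) or vector library 3 (-0.30, adjusted p = 0.127), and all alternatives gave between 3.67e-05 and 0.335.

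Measured as a share of each library, transcripts of the 49 matrix genes made up 1.08%, 1.09% and 1.07% of the column total in LACTB libraries against 0.691%, 0.914% and 0.837% in vector libraries. Their summed normalized counts were 385614, 380680 and 374639 in LACTB libraries against 285188, 347915 and 346302 in vector libraries. The glycoprotein sums, 262743 to 272582 in LACTB libraries and 187822 to 228182 in vector libraries, did not overlap. The proteoglycan sums, 111896 to 114181 in LACTB libraries and 97366 to 123936 in vector libraries, did. As shares of the column total the proteoglycans did not overlap. They stood at 0.317%, 0.327% and 0.320% in LACTB libraries against 0.236%, 0.315% and 0.2995% in vector libraries. The overlap thus depends on the scaling. None of these sums is scaled to transcript length. FN1 averaged 67367 in LACTB and 37157 in vector libraries. Its call was lost with the length and GC trend removed (0.34, limma adjusted p = 0.0509). FN1, TNC and SPARC alone gave 39.3% to 40.4% of the matrix sum in LACTB libraries and 40.1% to 41.6% in vector libraries. With TGFBI and THBS1 added, the share was 52.1% to 53.6% in LACTB libraries and 43.8% to 45.3% in vector libraries. These genes were not next in abundance, since CSPG4, SDC3, CD44 and EMILIN1 had higher means over all libraries. TGFBI was 3.73-fold and THBS1 4.06-fold higher, so the larger LACTB share follows from choosing them. With 3 libraries a group, an exact permutation test of a single sum cannot give a p below 0.1.

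**Figure D3:**
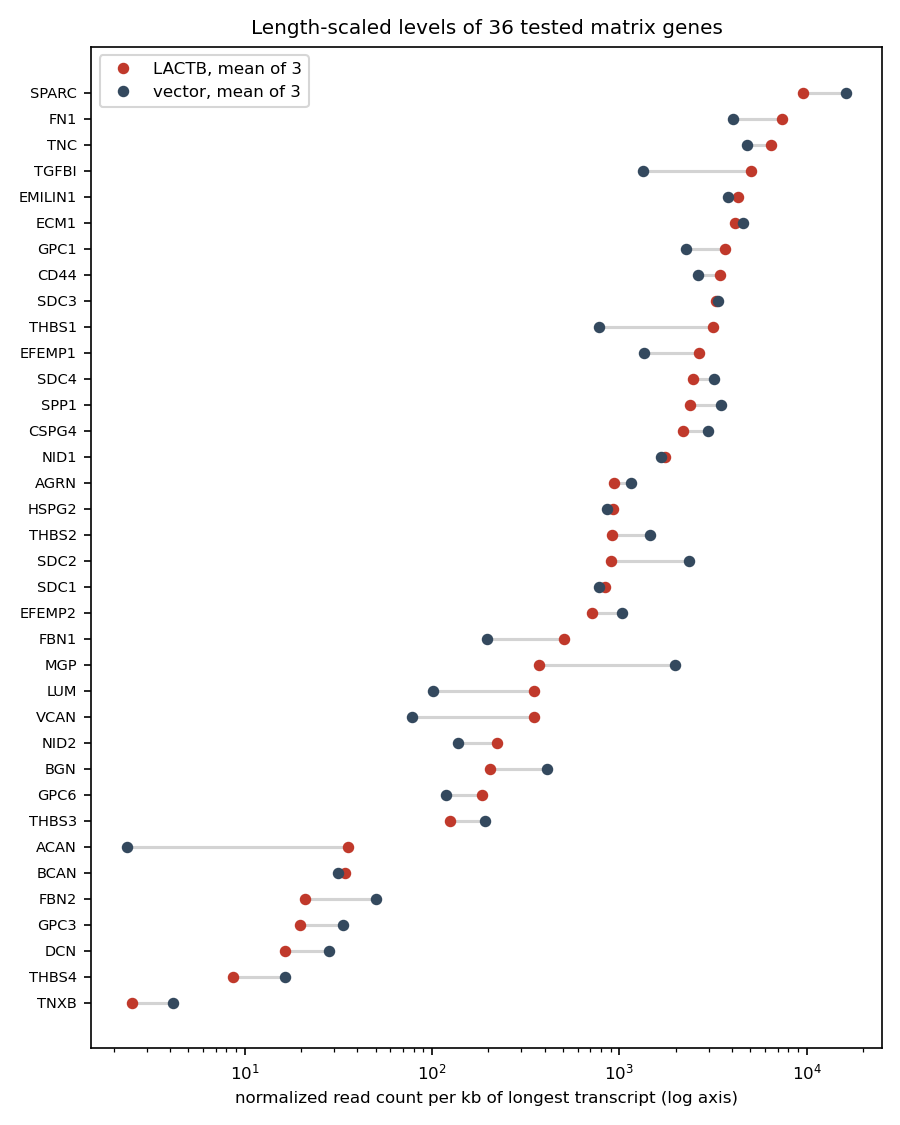
Mean normalized read count per kb of the longest transcript (log axis) of the 36 tested matrix genes in LACTB (red) and vector (dark blue) libraries, ordered by the LACTB level. SPARC leads in both groups, at 9553 in LACTB and 16240 in vector libraries, while the long joining lines of ACAN, VCAN, TGFBI, THBS1 and MGP mark the widest gaps.

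Scaled to transcript length, the matrix mRNA level of these cells was led by a few genes. SPARC averaged 9553 ± 565 normalized counts per kb in LACTB cells and 16240 ± 432 in vector cells (SD, n = 3 each). FN1 followed in LACTB cells, with 7346 ± 229.5 against 4052 ± 954 in vector cells. TNC had 6478 ± 82.8 in LACTB cells and 4780 ± 779.5 in vector cells, and so stood above FN1 in the order of vector means by less than the spread of either gene. TGFBI came next in LACTB cells, at 5022 ± 527.5, against 1346 ± 20.4 in vector cells. EMILIN1 and ECM1 were next in LACTB cells, at 4303 ± 61.6 and 4131 ± 182, a gap smaller than the SD of ECM1. The same genes had 3815 ± 664 and 4553 ± 520 in vector cells. TNXB was the lowest of the tested genes, at 2.52 in LACTB cells, although ACAN was lower than TNXB in vector cells.

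The signed log2 differences went with transcript length and base composition across the genes tested. Over the 12828 tested genes with an annotated length and GC content, the log2 difference correlated with the length of the longest transcript (Spearman rho = 0.41) and with its GC content (rho = -0.45), a description across genes that do not vary independently. The median log2 difference was -0.27 in the shortest of 5 equal length classes and 0.46 in the longest, which starts at 5883 bases. Matrix genes that were higher had a median transcript length of 6467 bases, those that were lower 3222 bases, and those not called 4903.5 bases. VCAN at 12625 bases, FBN1 at 11756 and FN1 at 9171 lie in the longest class, and FBN2 at 11132 bases lies there too, with the opposite sign. With a length and GC trend removed, 20 of the 26 calls remained in the same direction, where 49.4% of all genes passed. The genes with at least 2-fold differences, other than THBS4, kept their calls: ACAN was at 3.82, TGFBI at 1.93, THBS1 at 1.68, LUM at 1.63, VCAN at 1.56, FBN1 at 0.98, BGN at -0.60, SDC2 at -1.54, FBN2 at -1.63 and MGP at -2.44. FN1 did not pass by that measure (0.34, limma adjusted p = 0.0509, the highest over all alternatives), nor did THBS4 (-0.78, adjusted p = 0.116) or SDC4 (-0.21, adjusted p = 0.0519).

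**Figure D4:**
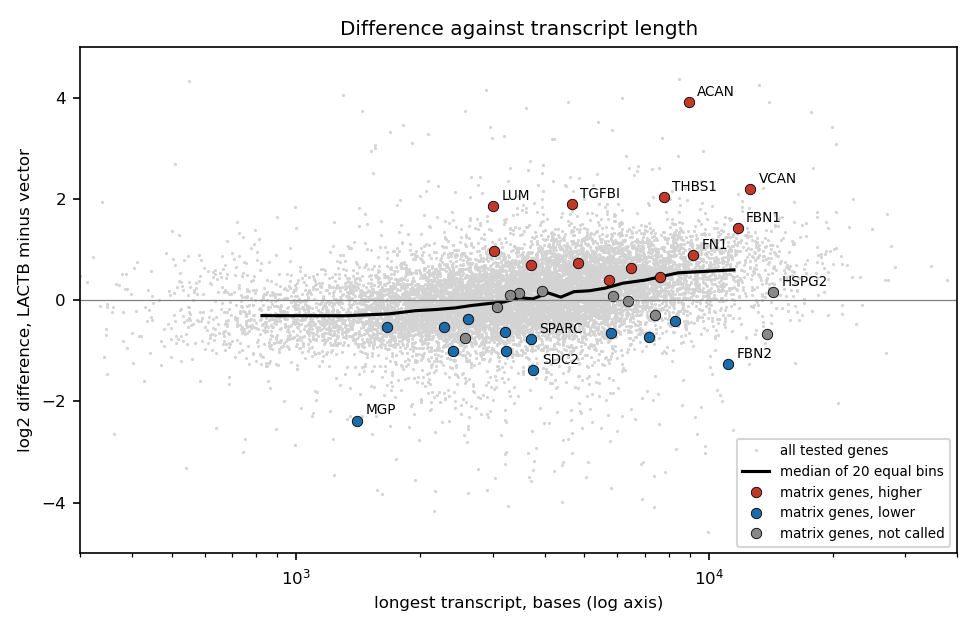
Log2 difference, LACTB minus vector, against the length of the longest annotated transcript (log axis) for the 12828 tested genes with an annotated length (grey dots), with the median of 20 equal bins (line) and the matrix genes coloured by call. The line climbs with length; FBN2 and MGP lie far below it and ACAN, VCAN, TGFBI and LUM far above.

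Vector library 1 was the lowest of the vector libraries for 26 of the 36 matrix genes, against 36.8% of all genes tested. The SD of log2 values had a median over the matrix genes of 0.128 in LACTB libraries and 0.288 in vector libraries, where all genes had 0.102 and 0.204. Without that library 25 of the 26 calls remained, where 56.7% of all genes passed, and ECM1, AGRN and GPC3 were called lower in addition.

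Promoter sequences of the fibrillin pair and of THBS1, VCAN and TGFBI are shown from the RefSeq promoter table (GRCh38.p14). THBS1, TGFBI, FBN1 and VCAN have the highest normalized counts, not scaled to length, of the genes that were at least 2-fold higher, and FBN2 is the relative of FBN1 that moved the other way. The table matched 38 of the 50 genes; LUM and MGP have no entry in it. Each line gives the 250 bases before the annotated start of transcription, 5′ to 3′ on the gene's strand, and capitals mark matches on either strand to the TATA box, TATAAA, the SP1 box, GGGCGG, the NF-Y box, CCAAT, the AP-1 site, TGACTCA, the TEAD site, GGAATG, or the E-box, CACGTG.
THBS1 (chr15:39580829-39581078, plus strand): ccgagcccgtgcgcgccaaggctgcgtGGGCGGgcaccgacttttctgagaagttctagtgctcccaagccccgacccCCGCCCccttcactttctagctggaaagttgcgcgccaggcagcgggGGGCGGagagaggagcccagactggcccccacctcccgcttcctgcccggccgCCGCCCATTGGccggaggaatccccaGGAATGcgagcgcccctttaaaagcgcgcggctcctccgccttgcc
FBN1 (chr15:48644971-48645220, minus strand): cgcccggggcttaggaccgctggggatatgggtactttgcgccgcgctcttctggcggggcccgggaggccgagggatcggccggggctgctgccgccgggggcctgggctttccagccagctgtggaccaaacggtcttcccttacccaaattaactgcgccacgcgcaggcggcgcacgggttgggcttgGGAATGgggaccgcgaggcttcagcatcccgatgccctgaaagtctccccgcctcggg
FBN2 (chr5:128538246-128538495, minus strand): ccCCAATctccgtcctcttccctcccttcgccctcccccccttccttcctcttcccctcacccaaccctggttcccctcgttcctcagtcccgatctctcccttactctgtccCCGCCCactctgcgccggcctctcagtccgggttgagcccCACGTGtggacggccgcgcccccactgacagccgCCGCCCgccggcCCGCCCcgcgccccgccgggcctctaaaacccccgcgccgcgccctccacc
VCAN (chr5:83471494-83471743, plus strand): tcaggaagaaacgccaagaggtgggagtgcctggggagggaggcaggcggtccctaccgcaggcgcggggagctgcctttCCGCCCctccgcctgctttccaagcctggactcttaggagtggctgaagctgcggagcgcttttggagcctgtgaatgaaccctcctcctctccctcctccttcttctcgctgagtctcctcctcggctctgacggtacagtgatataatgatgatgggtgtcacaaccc
TGFBI (chr5:136028738-136028987, plus strand): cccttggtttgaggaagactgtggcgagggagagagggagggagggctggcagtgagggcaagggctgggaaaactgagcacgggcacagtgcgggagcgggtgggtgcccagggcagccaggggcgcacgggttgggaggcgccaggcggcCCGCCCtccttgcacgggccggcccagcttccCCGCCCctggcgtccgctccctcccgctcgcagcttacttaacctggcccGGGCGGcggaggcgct

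In these windows FBN1 holds a single match, a TEAD site that begins at base -58 from the start. FBN2 holds an E-box at -97, a CCAAT box at -248 and SP1 boxes at -137, -63 and -51. THBS1 holds 4 SP1 boxes, a CCAAT box at -66 and a TEAD site at -46. VCAN holds an SP1 box at -170, and TGFBI holds SP1 boxes at -98, -66 and -16. Over all 35116 promoters of the table, 11.9% hold the TEAD letters, 42.6% the SP1 letters, 32% CCAAT and 6.34% the E-box. The SP1 letters were found in 26 of the 38 matched matrix genes, CCAAT in 9, the TEAD letters in 6, TATAAA in 5, TGACTCA in 3 and the E-box in 2. TATAAA is present in 10.7% and TGACTCA in 4.2% of all promoters. For each matrix gene only the first listed window was scanned, while the shares over all promoters count every listed window. The counts and shares may therefore not be like for like. A match in letters is not a measured binding site.

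The enzymes that build the chains of proteoglycans were measured alongside their core proteins. Of 30 tested genes for glycosaminoglycan synthesis, 13 were higher, 4 were lower and 13 did not pass (median of the log2 differences 0.23). Over all genes, 27.4% were higher and 24.6% lower. CSGALNACT1, which starts chondroitin chains, averaged 917 ± 62.8 normalized counts in LACTB cells and 349 ± 71.8 in vector cells (SD, n = 3 each; log2 difference 1.41, limma adjusted p = 3.25e-07). CHST3, a chondroitin 6-O-sulfotransferase, averaged 7842 ± 151 in LACTB cells and 4845 ± 672 in vector cells (0.70, limma adjusted p = 3.86e-05). DSEL, a relative of dermatan sulfate epimerase, averaged 391 ± 33.9 in LACTB cells and 188 ± 12.5 in vector cells (1.05, limma adjusted p = 4.3e-05). CHST11, a chondroitin 4-O-sulfotransferase, fell to 1573 ± 66.2 in LACTB cells, against 2269 ± 310.3 in vector cells (-0.52, limma adjusted p = 0.00131). B3GAT3, which completes the linker to the core protein, averaged 4166 ± 97.6 in LACTB cells and 5819 ± 593 in vector cells (-0.48, limma adjusted p = 0.00117). CHPF, a chondroitin polymerizing factor, averaged 9242 ± 434 in LACTB cells and 12619 ± 1596 in vector cells (-0.44, limma adjusted p = 0.00301). With the length and GC trend removed neither passed, B3GAT3 at 0.01 (limma adjusted p = 0.87; 0.000216 to 0.879 over all alternatives) and CHPF at 0.04 (adjusted p = 0.607; 0.000221 to 0.636).

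Among 8 tested genes of hyaluronan turnover and extracellular sulfatases, 3 were higher, 1 was lower and 4 did not pass (27.4% higher and 24.6% lower over all genes). HAS2, a hyaluronan synthase, averaged 146 ± 28.7 normalized counts in LACTB cells and 66.1 ± 16.6 in vector cells (SD, n = 3 each; log2 difference 1.14, limma adjusted p = 0.000929). CEMIP2 and CEMIP are both linked to hyaluronan breakdown. CEMIP2 averaged 3903 ± 76.3 in LACTB cells and 2220.2 ± 301 in vector cells (0.82, limma adjusted p = 6.51e-06). CEMIP, the gene called lower, averaged 18.7 ± 5.35 in LACTB cells and 333 ± 93.0 in vector cells (-4.08). Its LACTB values were all under the testing limit, so it was tested only through its vector values. HMMR, a hyaluronan receptor that is also a spindle protein, had overlapping groups, at 394 ± 78.4 in LACTB cells and 271 ± 78.7 in vector cells (0.56, limma adjusted p = 0.0262). Its call was lost without LACTB library 1 (adjusted p = 0.0735), LACTB library 2 (adjusted p = 0.119), vector library 2 (adjusted p = 0.107) or vector library 3 (adjusted p = 0.168), in a range from 0.00216 over all alternatives.

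Proteases of the ADAMTS family, several of which cleave lecticans, were tested for 8 members: 4 were higher, 2 lower and 2 did not pass (27.4% higher and 24.6% lower over all genes). ADAMTS15 averaged 1099 ± 271 normalized counts in LACTB cells and 293 ± 64.8 in vector cells (SD, n = 3 each; log2 difference 1.90, limma adjusted p = 2.91e-08). ADAMTS16 averaged 247 ± 76.0 in LACTB cells and 61.8 ± 20.3 in vector cells (1.99, limma adjusted p = 2.72e-06). ADAMTS17 averaged 279.6 ± 28.0 in LACTB cells and 173 ± 42.1 in vector cells (0.71, limma adjusted p = 0.00615). ADAMTS4, an aggrecanase, averaged 42.7 ± 16.4 in LACTB cells and 311 ± 51.9 in vector cells (-2.89, limma adjusted p = 1.35e-08). ADAMTS1, a protease that also cleaves aggrecan and versican, had overlapping groups, at 1822 ± 31.9 in LACTB cells and 2412 ± 633 in vector cells (-0.37, limma adjusted p = 0.0365). Its call was lost without LACTB library 1 (adjusted p = 0.0824), LACTB library 2 (adjusted p = 0.0518), LACTB library 3 (adjusted p = 0.0557), vector library 2 (adjusted p = 0.264) or vector library 3 (adjusted p = 0.122), with all alternatives between 0.000404 and 0.381.

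Partners of fibrillins and elastin were also split, with 4 of 10 tested genes higher, 5 lower and 1 not passing (27.4% higher and 24.6% lower over all genes). LTBP1, a latent TGF-beta binding protein that docks on fibrillin, averaged 1599 ± 66.7 normalized counts in LACTB cells and 625 ± 74.9 in vector cells (SD, n = 3 each; log2 difference 1.36, limma adjusted p = 3.23e-08). LTBP2, its relative on microfibrils, averaged 1103 ± 177 in LACTB cells and 418 ± 50.6 in vector cells (1.39, limma adjusted p = 1.97e-07). LTBP3 averaged 8992 ± 179 in LACTB cells and 14290.2 ± 2492 in vector cells (-0.65, limma adjusted p = 0.000172). FBLN1, which encodes fibulin-1, averaged 95.5 ± 27.0 in LACTB cells and 1262 ± 116 in vector cells (-3.75, limma adjusted p = 1.32e-12). LOXL2, a collagen and elastin cross-linking oxidase, averaged 20641 ± 1279 in LACTB cells and 14029 ± 929.8 in vector cells (0.56, limma adjusted p = 0.000302). TGM2, a transglutaminase that cross-links fibronectin, averaged 2131 ± 222 in LACTB cells and 5275 ± 402 in vector cells (-1.31, limma adjusted p = 8.73e-09).

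Further matrix glycoproteins and matricellular genes outside the 50 gave 7 higher, 6 lower and 3 not passing of 16 tested (27.4% higher and 24.6% lower over all genes). The matricellular genes CCN1 and CCN2, known as targets of YAP signalling, were both higher. CCN1 averaged 5979 ± 939.9 normalized counts in LACTB cells and 2531 ± 285 in vector cells (SD, n = 3 each; log2 difference 1.24, limma adjusted p = 6.87e-08). CCN2 averaged 5241 ± 892 in LACTB cells and 2329.6 ± 258 in vector cells (1.16, limma adjusted p = 1.89e-07). SPON2, a secreted protein of the F-spondin family, averaged 502 ± 31.9 in LACTB cells and 8978 ± 1044 in vector cells (-4.15, limma adjusted p = 5.52e-17). MATN2, a matrilin adaptor, averaged 112 ± 49.3 in LACTB cells and 571 ± 91.5 in vector cells (-2.43, limma adjusted p = 1.28e-07). VWA1, a perlecan-binding protein, averaged 449 ± 48.3 in LACTB cells and 1054 ± 149 in vector cells (-1.23, limma adjusted p = 7.75e-07).

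Other proteoglycan genes gave 3 higher, 3 lower and 3 not passing of 9 tested (27.4% higher and 24.6% lower over all genes). SPOCK1, the testican that stands on this list and on the glycoprotein list, averaged 6677 ± 419.9 normalized counts in LACTB cells and 1261 ± 100.1 in vector cells (SD, n = 3 each; log2 difference 2.41, limma adjusted p = 5.4e-13). PTPRZ1, a receptor phosphatase with chondroitin sulfate chains found in glia and glioma, averaged 2099 ± 453 in LACTB cells and 849.6 ± 94.3 in vector cells (1.29, limma adjusted p = 3.54e-07). PRELP, a leucine-rich relative of lumican, averaged 1344 ± 207 in LACTB cells and 705 ± 126 in vector cells (0.93, limma adjusted p = 2.69e-05). CSPG5, a neural proteoglycan, averaged 93.3 ± 32.8 in LACTB cells and 174 ± 5.61 in vector cells (-0.96, limma adjusted p = 0.00369). SRGN, which encodes the granule proteoglycan serglycin, averaged 1536 ± 203 in LACTB cells and 2244 ± 361 in vector cells (-0.54, limma adjusted p = 0.00174). HAPLN3, a link protein, averaged 827 ± 64.2 in LACTB cells and 1058 ± 85.5 in vector cells (-0.35, limma adjusted p = 0.0278), a call lost without LACTB library 1 (adjusted p = 0.148), 2 (adjusted p = 0.0703) or 3 (adjusted p = 0.0578) or vector library 3 (adjusted p = 0.0811), with all alternatives between 0.00345 and 0.672.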

How the data were processed

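RNA-seq was compared between 3 LACTB overexpression and 3 vector libraries of LN229 cells. Total RNA came from a Trizol and chloroform extraction and libraries from a common NEB protocol, per the labels' protocols. HISAT2 and hg38 were used, per the submitters' processing notes. For the counter, annotation, strand setting and normalization, nothing is stated (not given in the sources used here).

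Each gene's signal in the deposited table is a normalized read count. Whole reads were not recovered: with the best step per library, 34.0% to 57.3% of low values were whole (tolerance 0.05, chance share 10%). No count model was therefore used, the reads behind each column are unknown, and the spread of the libraries sets the precision. The design had foreseen either counts or normalized values, and its branch for normalized values was applied. Values under 1e-10 were set to 0.

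Values were tested as log2(value + 1) with limma 3.58.1 (trend and robust) in R 4.3.3, two-sided, for genes averaging 1 CPM (37.7 normalized counts) or more, with Benjamini-Hochberg adjustment at 0.05. Fold changes of means are on the deposited scale; log2 differences understate low genes. Tables and figures were made with Python 3.11.15 and matplotlib 3.10.9. The fit was tested on simulated data. Whether libraries are separate cultures is not in the labels, so the p-values speak only of how these libraries vary, possibly for technical reasons.

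The members and lists were chosen with earlier results of these data known. Members called at least 2-fold or most abundant are given in every library, and up to 3 called genes in each direction from each related list. Transcript lengths and GC were taken from GENCODE 29 (GRCh38) (96.0% of symbols matched, 99.1% of tested genes with both). Exons of 17 of the 36 tested members overlap those of another gene, 9 of them a protein-coding one (EFEMP2, FBN2, HSPG2, MGP, NID2, THBS1, THBS3, TNC and TNXB), and reads there cannot be split without a strand setting. The alternatives were 3 other scalings, filters, pseudocounts, limma settings, call rules, a replicate block, a length and GC correction, and leaving out each library.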

Additional observations from a re-analysis of the deposited data

How the results depend on the processing

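Of the 26 matrix calls, 20 to 26 remained under each alternative fit with the filter at 1 CPM or none, and none turned to the opposite direction. At 5 CPM 23 remained because THBS4, ACAN and DCN were not tested. The median log2 difference of the glycoproteins (-0.135) was -0.27 with median centring, 0.052 with quantile normalization, 0.057 with equal column totals, -0.023 without a filter, 0.089 at 5 CPM and 0.059 with the length and GC trend removed, with or without the replicate block. It ranged from -0.225 to -0.060 when a library was left out. That of the proteoglycans (0.10) was -0.029, 0.17 and 0.30 under the 3 scalings, 0.14 without a filter and 0.043 with the trend removed, with or without the block, and from -0.095 to 0.175 with a library left out. The median of all genes tested was -0.087 with median centring, 0.012 with quantile normalization and 0.24 with equal column totals. Over all genes, 20.7% were called higher and 32.1% lower with median centring, 38.5% and 14.7% with equal column totals. At 2-fold or more, 6 matrix genes were higher and 3 lower with 1 CPM as pseudocount, and 8 and 3 with equal column totals. The share of all genes at 2-fold or more was not counted under these settings.

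Glycoproteins called lower numbered 7 to 9 with a library left out, and 3 were higher and 3 lower at 2-fold or more. Proteoglycans called lower (5) numbered 2 with equal column totals, 3 without trend and robust settings, 2 at an adjusted p of 0.01 and 3 to 6 with a library left out; at 2-fold or more 3 were higher and 2 lower. The synthesis enzymes had 8 higher with median centring, 2 lower with equal column totals, and 2 higher and 0 lower at 2-fold or more. The hyaluronan and sulfatase genes had 0 lower at 5 CPM and 1 higher at 2-fold or more. Elastic fibre partners had 2 and 2 at 2-fold or more. The ADAMTS genes had 1 lower with equal column totals, at 5 CPM, without trend and robust settings, at 0.01 and at 2-fold or more, 2 higher at 2-fold or more, and 1 to 3 lower with a library left out (3 without vector library 1, 1 without any other). The other glycoproteins had 3 lower at 2-fold or more. The other proteoglycans had 5 higher without a filter and 0 lower at 2-fold or more. B3GAT3 and CHPF changed sign with the length and GC trend removed, with and without the block, to 0.014 and 0.041. For counts at 2-fold or more, a stricter p or fewer tested genes the construction shows the cause; for the others the cause was not tested.

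The replicate numbers did not pair the libraries: deviations of same-numbered libraries correlated at 0.023, 0.18 and 0.0034, and LACTB library 1 correlated best with vector library 3. With the replicate number as a block, 13 matrix genes were higher and 15 lower (AGRN and GPC3 added), and 6879 of all genes passed against 6721. Depth is unknown, so genes listed at or near 0 cannot be called absent.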
